A study of Mus musculus with 14 samples.

Results

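The genes described here are 47 mouse genes of the interferon response and of antigen presentation by major histocompatibility complex (MHC) class I. They were taken by symbol from a list of names, out of 55291 symbols in the deposited count table of a study that turned embryonic fibroblasts into retinal pigment epithelium (RPE) cells with chemicals. All 47 were in the table, and all 47 were among the 20562 genes that passed the filter on low counts. RNA was sequenced in 14 libraries of C57BL/6J genotype, in groups that the labels name by day of the protocol. D7 and D18 (3 libraries each) were reprogramming intermediates after 7 and 18 days in M7 reprogramming medium, which holds N2, B27 without vitamin A, bFGF and the small molecules CHIR-99021, LDN193189, A 83-01, Hh-Ag1.5, RG108, BMS-345541 and CKI-7. D32 (3 libraries) held the cells called ciRPE, at day 32, in M3 differentiation and maturation medium with KSR, 2-mercaptoethanol, Y27632, nicotinamide, retinoic acid and Activin A. P-RPE (2 libraries) held untreated RPE cells, and MEF (3 libraries) held fibroblasts from E13.5 embryos. The labels also give the MEF libraries the M7 medium, and give P-RPE the same E13.5 embryo tissue as every other group; neither entry was used for grouping. Per the labels' protocols, cells that looked successfully induced were scraped off for RNA, so the libraries of the protocol are of selected cells. Nothing says whether replicates came from separate cultures or animals, so p-values measure the spread between these libraries, which may be technical.

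Type I interferons bind a receptor on the cell surface and, through the kinases Jak1 and Tyk2, lead to a complex with Stat2 and Irf9 that binds DNA at interferon-stimulated response elements (ISRE). The genes switched on in this way encode sensors of viral RNA, enzymes that block viral replication, and the machinery that shows peptides on MHC class I to T cells. In fibroblasts and in RPE most of these genes are known to be low at rest and to be induced by interferon or by foreign nucleic acid.

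Each library held between 32352405 and 41390196 counts, and 1 count was worth 0.0227 to 0.0305 CPM, the count scaled to a common library total with TMM factors (edgeR's trimmed mean method), which is the unit of every level below. The RPE markers Rpe65, Ttr, Rgr, Lrat and Tyr were at 0 in MEF, and Ttr and Tyr were at 0 at D18. The summed level of 9 RPE markers was 3966 to 7908 CPM at D32 and 54691 to 62534 CPM in P-RPE. Most of it was Ttr and Rgr, which averaged 2042 and 2141 CPM at D32 and 22554 and 22241 CPM in P-RPE. Best1 did not follow the sum, at means of 1.55 CPM at D18, 1.36 CPM at D32 and 2.29 CPM in P-RPE. Within groups, the libraries were not alike for the interferon genes. D7 replicate 2 was the highest D7 library for 40 of the 47 (85.1%, against 39.6% of all genes), D32 replicate 2 the highest D32 library for 31 (66.0%, against 37.9%), and P-RPE replicate 2 the higher P-RPE library for 43 (91.5%, against 51.8%). D18 replicate 1 was the highest D18 library for 32 (68.1%, against 34.0%). The summed level of the 47 genes was 859 to 907 CPM in MEF, 4400 to 4813 CPM at D7, 2089 to 2746 CPM at D18, 2119 to 2576 CPM at D32 and 3248 to 3824 CPM in P-RPE.

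Nearly every member was higher at D7 than in MEF. By edgeR's quasi-likelihood test at a Benjamini-Hochberg adjusted p under 0.05, 44 of 47 rose, 1 fell (Samhd1) and 2 did not pass (Eif2ak2 and Ifit2). Over all genes tested, 28.5% rose and 26.5% fell in this comparison. The median log2 change of the members was 3.73 at D7 relative to MEF, beside 0.04 over all genes. With library totals alone in place of TMM, 69.7% of all called genes were higher at D7 (51.8% with TMM) and 97.8% of called members were (97.8% with TMM). At D18 relative to D7, 4 members rose, 31 fell and 12 did not pass, where 29.2% of all genes rose and 27.4% fell, and the median log2 change was -0.92 beside 0 over all genes. D18 was nevertheless above MEF for 41 members and below it for 2, with 4 that did not pass, where 37.4% of all genes rose and 32.7% fell. That median was 2.64, beside 0.11 over all genes. In bulk RNA, fewer cells of a type and less RNA per cell cannot be told apart.

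Between D18 and D32 the members parted. At D32 relative to D18, 24 rose, 12 fell and 11 did not pass, where 29.9% of all genes rose and 26.1% fell; the median log2 change was 0.46, beside 0.07 over all genes. Of the 12 that fell, 6 were genes of class I presentation. At D32 relative to MEF, 45 rose, 0 fell and 2 did not pass (Ifit2 and B2m), where 35.6% of all genes rose and 24.6% fell, with a median of 3.02 beside 0.26 over all genes. At D32 relative to P-RPE, 4 members rose, 24 fell and 19 did not pass, where 27.1% of all genes rose and 26.8% fell, with a median of -0.62 beside 0.02. The count of 24 was 12 without P-RPE replicate 2, and the count of 4 was 2 without P-RPE replicate 1. In P-RPE relative to MEF, 44 members rose, 2 fell (Samhd1 and Eif2ak2) and 1 did not pass (Ifit2), where 39.3% of all genes rose and 31.4% fell, with a median of 3.96 beside 0.18. The count of 2 was 1 without MEF replicate 1 or 2 or either P-RPE replicate, when Eif2ak2 no longer passed. Comparisons with MEF share its libraries and are not independent of each other. Group means were lowest in MEF for 41 of the 47 members and highest for 0 in MEF. D7 was the highest group for 18, D18 for 5, D32 for 3 and P-RPE for 21.

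**Figure D1:**
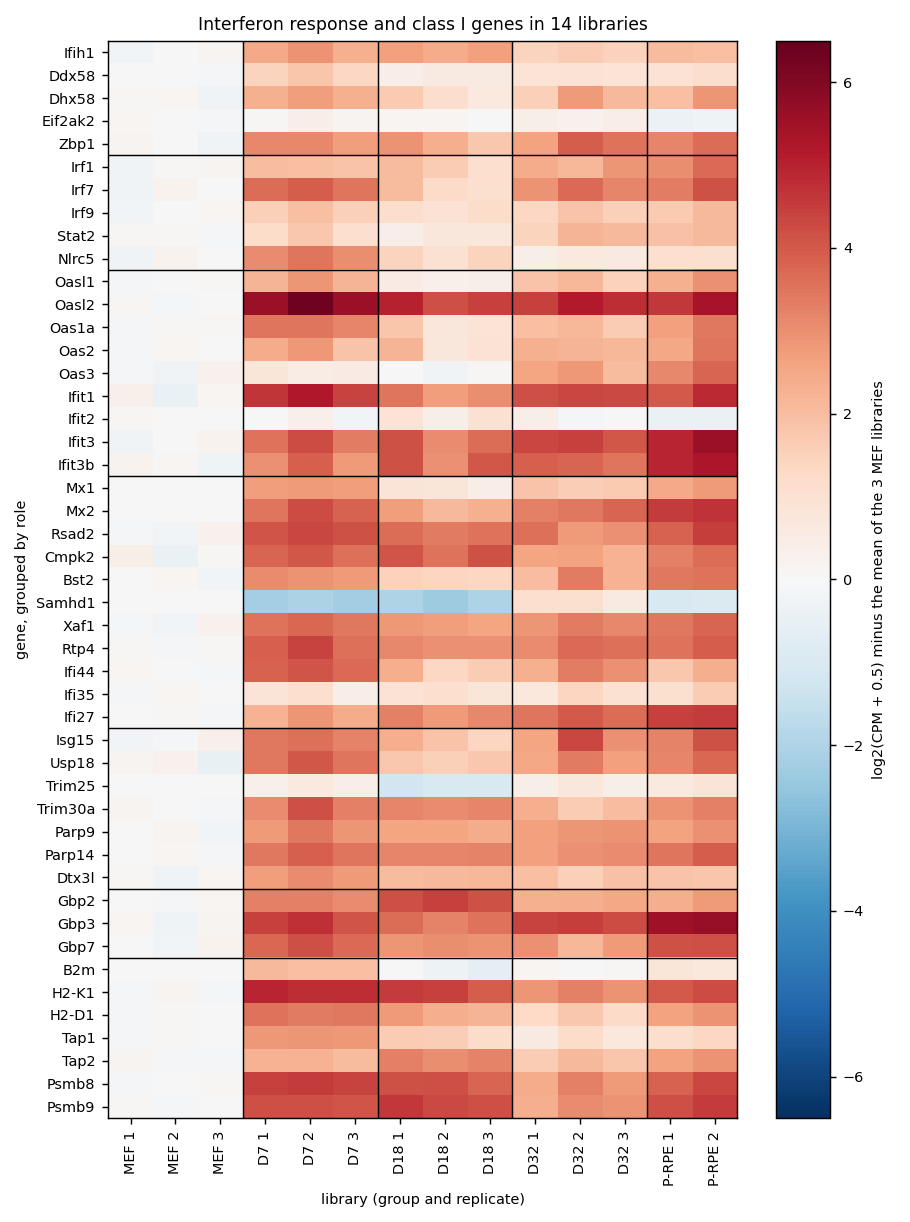
Level of each of the 47 genes (down, grouped by role) in each of the 14 libraries (across), as log2(CPM + 0.5) minus the mean of the 3 MEF libraries, so that red is above MEF and blue below it. Most genes are reddest at D7 and in P-RPE. Samhd1 is blue at D7 and D18 and, more faintly, in P-RPE. D32 replicate 2 stands above the other D32 libraries for Isg15 and Bst2.

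Promoter sequences were compared because many of these genes are known targets of the complex with Stat2 and Irf9. Of the 47 members, 35 matched a promoter window of RefSeq (GRCm38.p6), which holds 250 bases before and 50 after an annotated start. The ISRE letters GAAANNGAAA, read on either strand, were present in a window of 17 of these 35 genes (48.6%), against 3.99% of 27025 genes with a window (3.44% of 32851 windows). The letters TTCNNNGAA, the core of the gamma-activated site, were present in 9 of the 35 (25.7%), against 9.55% of genes (8.30% of windows); a match of one motif can overlap a match of the other. The 9 stretches of 60 bases that follow lie before the start of genes with an ISRE match and are shown because they come from members of 6 roles, among them the class I light chain gene B2m. Capitals mark the ISRE letters, and a stretch with TTTC in capitals carries the motif on the opposite strand.
Isg15 (chr4:156200850-156200909, minus strand): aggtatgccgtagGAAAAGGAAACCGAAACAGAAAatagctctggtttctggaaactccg
Ifit1 (chr19:34640779-34640838, plus strand): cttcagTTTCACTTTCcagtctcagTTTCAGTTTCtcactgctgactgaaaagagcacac
Ifit3 (chr19:34583382-34583441, plus strand): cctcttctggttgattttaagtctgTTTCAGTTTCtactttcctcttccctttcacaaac
Oas3 (chr5:120777700-120777759, minus strand): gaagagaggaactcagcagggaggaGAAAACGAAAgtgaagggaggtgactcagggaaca
Rsad2 (chr12:26456538-26456597, minus strand): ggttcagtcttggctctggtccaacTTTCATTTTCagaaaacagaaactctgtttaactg
Bst2 (chr8:71537562-71537621, minus strand): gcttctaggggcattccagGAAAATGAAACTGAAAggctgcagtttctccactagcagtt
Gbp7 (chr3:142530258-142530317, plus strand): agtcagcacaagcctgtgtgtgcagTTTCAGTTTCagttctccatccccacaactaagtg
Stat2 (chr10:128270251-128270310, plus strand): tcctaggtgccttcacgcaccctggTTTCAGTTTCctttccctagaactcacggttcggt
B2m (chr2:122147523-122147582, plus strand): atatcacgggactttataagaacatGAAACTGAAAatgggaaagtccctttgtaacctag

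Isg15 held 3 overlapping matches centred 61, 67 and 73 bases before its start, and Ifit1 held 2, centred 80 and 99 bases before. The 60 bases printed for Ifit3 were letter for letter those of its neighbour Ifit3b. Members with an ISRE match (n = 17) had a median log2 change of 3.74 at D7 relative to MEF, and those with a window and no match (n = 18) had 3.60. At D32 relative to P-RPE the medians were -0.84 with a match and -0.45 without one. Eif2ak2 held a match 23 bases after its start and did not pass at D7, while Oasl2 had none in its window and changed by 6.74 on the log2 scale. A match is a description of letters in this window and not a measured binding site.

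**Figure D2:**
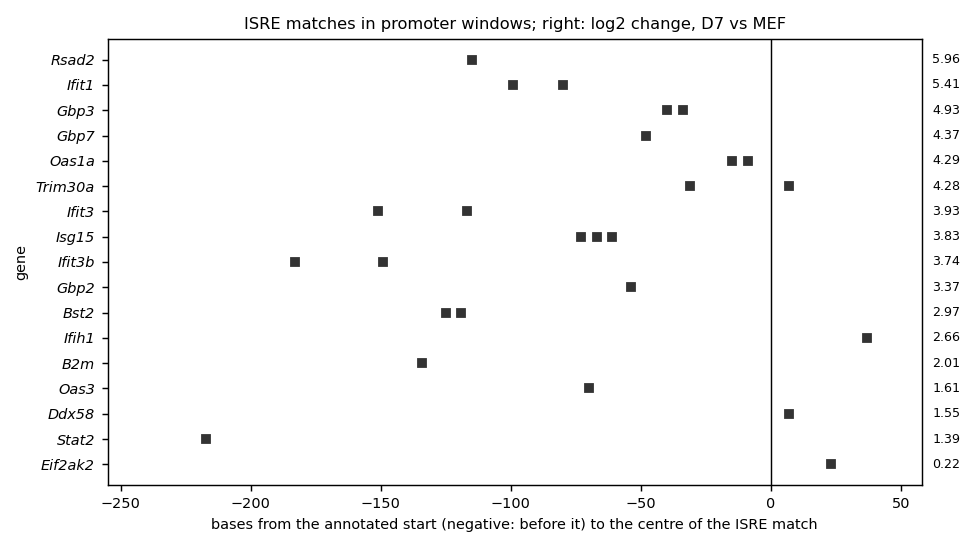
Position of each ISRE match (squares) in the promoter windows of 17 genes, in bases from the annotated start (vertical line), with the log2 change at D7 relative to MEF written at the right. Matches sit on both sides of the start, and genes are sorted by their change, 5.96 for Rsad2 to 0.22 for Eif2ak2.

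The sensors of foreign nucleic acid were higher at D7 for 4 of 5. Zbp1, which senses nucleic acids in the left-handed Z form, had 0.305, 0.221 and 0.113 CPM in MEF, 5.62, 5.70 and 4.24 CPM at D7, 4.92, 3.18 and 1.91 CPM at D18, 3.86, 10.4 and 7.73 CPM at D32, and 5.88 and 8.17 CPM in P-RPE. Every later library lay above the MEF libraries, and the D18 and D32 libraries overlapped. Its log2 change was 4.59 ± 0.49 (SE) at D7 relative to MEF (adjusted p = 1.46e-06) and 1.13 ± 0.37 at D32 relative to D18 (adjusted p = 0.0175), and the second call was lost without D18 replicate 3 (0.85) or D32 replicate 2 (0.80). Ddx58, the cytoplasmic RNA sensor RIG-I, had 66.5, 85.1 and 62.7 CPM at D7, against 24.7, 25.2 and 23.5 CPM in MEF, a log2 change of 1.55 ± 0.12 (adjusted p = 3.89e-08). At D18 it fell to 33.6, 37.4 and 36.7 CPM, below every D7 library. Dhx58, the RIG-I relative LGP2, rose by 2.88 ± 0.39 at D7 relative to MEF and fell by 1.35 at D18 relative to D7 (SE 0.36). Ifih1, which encodes MDA5, a sensor of long double-stranded RNA, had 39.6, 34.2 and 40.5 CPM at D18, against 34.4, 47.4 and 30.9 CPM at D7; these libraries overlapped and the change did not pass (adjusted p = 0.931). It fell to 16.8, 19.8 and 17.4 CPM at D32, below every D18 library (log2 change -1.08 ± 0.16).

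Eif2ak2, the kinase PKR that halts translation on binding double-stranded RNA, moved little. It had 36.8, 33.9 and 31.5 CPM in MEF, 35.3, 45.6 and 37.9 CPM at D7, 37.2, 36.7 and 34.8 CPM at D18, 44.9, 41.3 and 45.9 CPM at D32, and 26.4 and 27.9 CPM in P-RPE. The change at D7 relative to MEF did not pass (log2 0.22 ± 0.11, adjusted p = 0.105); it passed with library totals alone (0.54) and among genes of at least 5 CPM (0.27). D32 lay above P-RPE without overlap, by 0.70 ± 0.12 on the log2 scale (adjusted p = 0.000253).

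All 5 signal factors rose at D7. Irf7, the factor that amplifies type I interferon production, had 1.83, 2.71 and 2.16 CPM in MEF, 33.3, 40.3 and 29.8 CPM at D7, 10.7, 6.00 and 5.13 CPM at D18, 20.2, 34.4 and 23.7 CPM at D32, and 26.6 and 47.8 CPM in P-RPE. No library of a step of the protocol overlapped those of the step before, and the log2 changes were 3.94 ± 0.33 (D7 relative to MEF), -2.24 ± 0.30 (D18 relative to D7) and 1.84 ± 0.30 (D32 relative to D18). D32 and P-RPE overlapped, and that difference did not pass (adjusted p = 0.182). Stat2, of the ISRE-binding complex, followed the same course at 19.5 to 22.02 CPM in MEF, 44.99 to 72.1 CPM at D7, 29.0 to 35.5 CPM at D18, 58.8 to 98.8 CPM at D32, and 79.9 and 92.6 CPM in P-RPE. Irf9, its partner, rose by 1.74 ± 0.16 at D7 relative to MEF. Irf1, a factor known above all as a target of interferon gamma, had 35.3, 34.2 and 32.04 CPM at D7, against 7.13, 8.85 and 9.56 CPM in MEF. Its highest levels were 72.1 and 114 CPM in P-RPE, where D32 lay lower at 47.4, 39.2 and 64.6 CPM (log2 change -0.89 ± 0.26 at D32 relative to P-RPE), a call that was lost without P-RPE replicate 2 (-0.52) and with no filter on low counts (-0.82).

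Nlrc5, the transactivator of MHC class I genes, took another course. It had 4.11, 5.95 and 4.82 CPM in MEF, 44.7, 59.7 and 43.5 CPM at D7, 14.1, 10.1 and 14.4 CPM at D18, 6.51, 7.84 and 7.60 CPM at D32, and 10.97 and 10.6 CPM in P-RPE. Its level was lower at each step after D7, with no overlap between neighbouring steps: the log2 change was -1.94 ± 0.18 at D18 relative to D7 (adjusted p = 3.13e-07) and -0.81 ± 0.18 at D32 relative to D18 (adjusted p = 0.00126). Of the 5 signal factors it was the 1 that fell at D32 relative to D18; the other 4 rose.

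Of the 9 OAS and IFIT genes, 8 rose at D7 and 1, Ifit2, did not pass. OAS enzymes make oligoadenylates that activate RNase L, and IFIT proteins bind viral RNA. Oasl2 had 51.9, 85.0 and 51.7 CPM at D7, against 0.640, 0.498 and 0.624 CPM in MEF, a log2 change of 6.74 ± 0.38 (adjusted p = 3.62e-09). It fell to 34.8, 19.0 and 22.9 CPM at D18, below every D7 library. Ifit1 had 31.1, 46.2 and 26.6 CPM at D7, against 1.10, 0.443 and 0.908 CPM in MEF (log2 change 5.41 ± 0.36), then 13.8, 7.82 and 9.75 CPM at D18 and 22.7, 25.8 and 24.5 CPM at D32. Oas2 rose by 3.56 ± 0.52 at D7 relative to MEF. Oas1a and Oasl1 fell by 2.46 (SE 0.33) and 2.84 (SE 0.34) at D18 relative to D7, and Oasl1 at D18 no longer passed against MEF (log2 0.89 ± 0.39, adjusted p = 0.055). That comparison passed with library totals alone (0.99), with the replicate number as a block (0.90), with the 2 groups alone (0.93) and without D32 replicate 2 (0.89).

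Oas3, the long OAS enzyme, was highest late. It had 0.122, 0.0553 and 0.284 CPM in MEF, 0.598, 0.409 and 0.424 CPM at D7, 0.169, 0.0534 and 0.171 CPM at D18, 3.33, 4.12 and 2.19 CPM at D32, and 5.18 and 8.39 CPM in P-RPE. Libraries of D32 and P-RPE stood apart from all the others. Its log2 change at D32 relative to D18, 4.59 ± 0.50 (adjusted p = 1.82e-06), was the largest of any member in that comparison, while its call at D7 relative to MEF (1.61 ± 0.53, adjusted p = 0.0174) was lost without MEF replicate 1 (1.47), MEF replicate 2 (1.20) or D7 replicate 1 (1.39).

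The IFIT genes parted after D7. Ifit2 had 39.2, 27.9 and 42.1 CPM at D18, against 20.4, 26.5 and 18.8 CPM at D7 and 21.8, 20.6 and 20.7 CPM in MEF. Its D18 libraries lay above all of D7 and MEF, and it rose at D18 relative to D7 (log2 change 0.73 ± 0.18, adjusted p = 0.00235). Ifit3 had 61.7, 29.4 and 44.7 CPM at D18, against 40.6, 66.1 and 36.0 CPM at D7, a difference that did not pass (adjusted p = 0.849). Its highest libraries were P-RPE, at 109.8 and 174 CPM, against which D32 was lower at 72.3, 78.7 and 59.4 CPM (log2 change -1.02 ± 0.30); that call was lost without P-RPE replicate 2 (-0.65) and with no filter on low counts (-0.95). Ifit3 and Ifit3b lie near each other on chromosome 19, at 34583531 to 34588731 and 34607970 to 34613401 (GRCm38), and as near-identical copies they may share reads. The same holds for Oas1a and the further Oas1 genes.

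Of the 11 other antiviral effectors, 10 rose at D7. Mx1, a GTPase against influenza-like viruses whose C57BL/6 allele is known to be defective, had 0 counts in all MEF libraries and 2.80, 2.89 and 2.75 CPM at D7. It was at least 97.7-fold higher at D7 than in MEF, taking a floor of 3 counts over the MEF group and counts as independent. With Mx1 at this bound the median of the 47 was the same. At D18 it had 0.393, 0.374 and 0.171 CPM, below every D7 library (log2 change -3.15 ± 0.35). Mx2, annotated as a polymorphic pseudogene, had 5.65, 10.1 and 7.32 CPM at D7, against 0.0609, 0.0553 and 0.0567 CPM in MEF. Rsad2 (viperin) and its neighbour Cmpk2, on opposite strands of chromosome 12, make an antiviral nucleotide and its precursor. Both rose at D7, by 5.96 ± 0.38 and 4.35 ± 0.29 relative to MEF, and at D18 relative to D7 Rsad2 fell by 0.74 (SE 0.26) whereas Cmpk2 did not pass (0.16 ± 0.23); the Rsad2 call was lost without D7 replicate 2 (-0.68), D18 replicate 2 (-0.69) or D18 replicate 3 (-0.74). Cmpk2 fell at D32, to 7.79, 8.05 and 6.08 CPM, against 23.5, 15.5 and 24.1 CPM at D18.

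Samhd1 ran against the rest of the group. It encodes a dNTP hydrolase that restricts retroviruses and is also active in cells without interferon. It had 156, 150.5 and 150.8 CPM in MEF, 33.0, 35.9 and 31.4 CPM at D7, 37.7, 30.8 and 37.6 CPM at D18, 330.5, 310.4 and 229.7 CPM at D32, and 75.2 and 78.1 CPM in P-RPE. D32 was above every other library and D7 and D18 below every other library. The log2 change was -2.19 ± 0.13 at D7 relative to MEF (adjusted p = 3.31e-09), 3.04 ± 0.14 at D32 relative to D18 (adjusted p = 2.73e-10) and 1.92 ± 0.15 at D32 relative to P-RPE (adjusted p = 8.76e-08).

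Among the remaining effectors, Xaf1, Rtp4 and Ifi35 rose by 4.09 ± 0.23, 4.56 ± 0.26 and 0.84 ± 0.22 at D7 relative to MEF. Ifi27, a mitochondrial protein gene induced by interferon, was higher at every later stage than in MEF. It had 11.1, 11.6 and 9.99 CPM in MEF, 53.0, 83.0 and 59.1 CPM at D7, 109, 76.4 and 99.1 CPM at D18, 126, 180.1 and 141 CPM at D32, and 242 and 267 CPM in P-RPE. D7 and D18 overlapped. Its call at D18 relative to D7 (log2 0.54 ± 0.17, adjusted p = 0.0149) was lost with library totals alone (0.32) and without D7 replicate 1 (0.39), D7 replicate 3 (0.46) or D18 replicate 1 (0.43). Bst2, the tetherin that holds budding virus at the membrane, had 57.8, 149 and 69.3 CPM at D32, against 40.9, 37.7 and 37.0 CPM at D18. Replicate 2 was the highest D32 library, the other D32 libraries also lay above D18, and the log2 change was 1.25 ± 0.26 (adjusted p = 0.00115). Ifi44 had 10.9, 13.0 and 9.63 CPM at D7, against 0.365, 0.277 and 0.227 CPM in MEF. It was called higher at D32 than in P-RPE (0.96 ± 0.38, adjusted p = 0.0431), but the libraries overlapped, at 3.45, 7.33 and 5.74 CPM at D32 and 2.13 and 3.54 CPM in P-RPE, and the call was lost with RLE size factors (0.89) and without MEF replicate 1 (0.96), 2 (0.96) or 3 (0.96), D32 replicate 2 (0.70), D32 replicate 3 (0.93) or P-RPE replicate 1 (0.64).

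The 7 genes of the ISG15 pathway, ubiquitin ligation and ADP-ribosylation all rose at D7. Isg15, a ubiquitin-like protein, had 18.5, 21.1 and 16.1 CPM at D7, against 1.10, 1.11 and 1.70 CPM in MEF, and fell to 8.74, 5.95 and 4.16 CPM at D18. At D32 it had 10.2, 35.9 and 13.7 CPM, and in P-RPE 16.3 and 31.3 CPM. The lowest D32 library was just above the highest D18 library. Its log2 change was 3.83 ± 0.49 at D7 relative to MEF and 1.66 ± 0.43 at D32 relative to D18. Usp18, which removes ISG15 and damps the interferon receptor, had 15.4, 23.6 and 15.9 CPM at D7, against 1.19, 1.30 and 0.567 CPM in MEF, and fell to 4.47, 3.90 and 4.45 CPM at D18. Isg15 did not pass at D32 relative to P-RPE (-0.26 ± 0.46), but was called lower without D32 replicate 2 (-0.997), as was Usp18 (-0.95). 

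Trim25, a ubiquitin ligase that activates RIG-I, had 53.4, 54.7 and 52.8 CPM in MEF, 67.9, 84.5 and 71.4 CPM at D7, 22.4, 26.5 and 27.1 CPM at D18, 70.9, 91.3 and 69.9 CPM at D32, and 83.1 and 95.9 CPM in P-RPE. D18 stood below all other libraries, so that Trim25 and Samhd1 were the members lower at D18 than in MEF (Trim25 log2 change -1.08 ± 0.13, adjusted p = 1.69e-06). Trim30a had 10.0, 22.6 and 11.8 CPM at D7, against 0.914, 0.719 and 0.652 CPM in MEF, and 6.01, 3.48 and 4.57 CPM at D32, against 11.01, 9.93 and 10.7 CPM at D18. It was the 1 gene of these 7 that fell at D32 relative to D18 (-1.17 ± 0.28). Parp9 and Dtx3l, partners in 1 complex, start 681 bases apart on opposite strands of chromosome 16 and share 458 exonic bases, so reads cannot be told apart there if strand was not used in counting. They rose by 3.20 ± 0.19 and 3.04 ± 0.17 at D7 relative to MEF. Parp14 rose by 3.86 ± 0.18, to 31.3, 43.1 and 32.21 CPM at D7, against 2.38, 2.71 and 2.27 CPM in MEF.

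All 3 guanylate-binding proteins, GTPases that attack the membranes of intracellular microbes, rose at D7. Gbp2 had 3.35, 2.99 and 3.60 CPM in MEF, 35.8, 36.1 and 31.2 CPM at D7, 69.4, 83.4 and 67.0 CPM at D18, 18.6, 19.0 and 21.2 CPM at D32, and 18.8 and 25.4 CPM in P-RPE. It peaked at D18, with no overlap on either side: the log2 change was 1.09 ± 0.13 at D18 relative to D7 (adjusted p = 5.36e-06) and -1.90 ± 0.14 at D32 relative to D18 (adjusted p = 2.4e-08). Gbp3 moved the other way at both steps. It had 19.6, 14.6 and 18.4 CPM at D18, against 34.9, 43.0 and 27.7 CPM at D7, and 34.0, 36.5 and 30.5 CPM at D32 (0.94 ± 0.17 relative to D18). P-RPE held the most Gbp3, at 73.1 and 82.2 CPM, above every D32 library (log2 change -1.21 ± 0.19 at D32 relative to P-RPE). Gbp7 fell at D18 relative to D7 (adjusted p = 0.000718) and was lower at D32 than in P-RPE (-1.51 ± 0.22). Gbp2, Gbp3 and Gbp7 lie in 1 cluster on chromosome 3 and resemble each other in sequence, so reads may be shared among them.

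**Figure D3:**
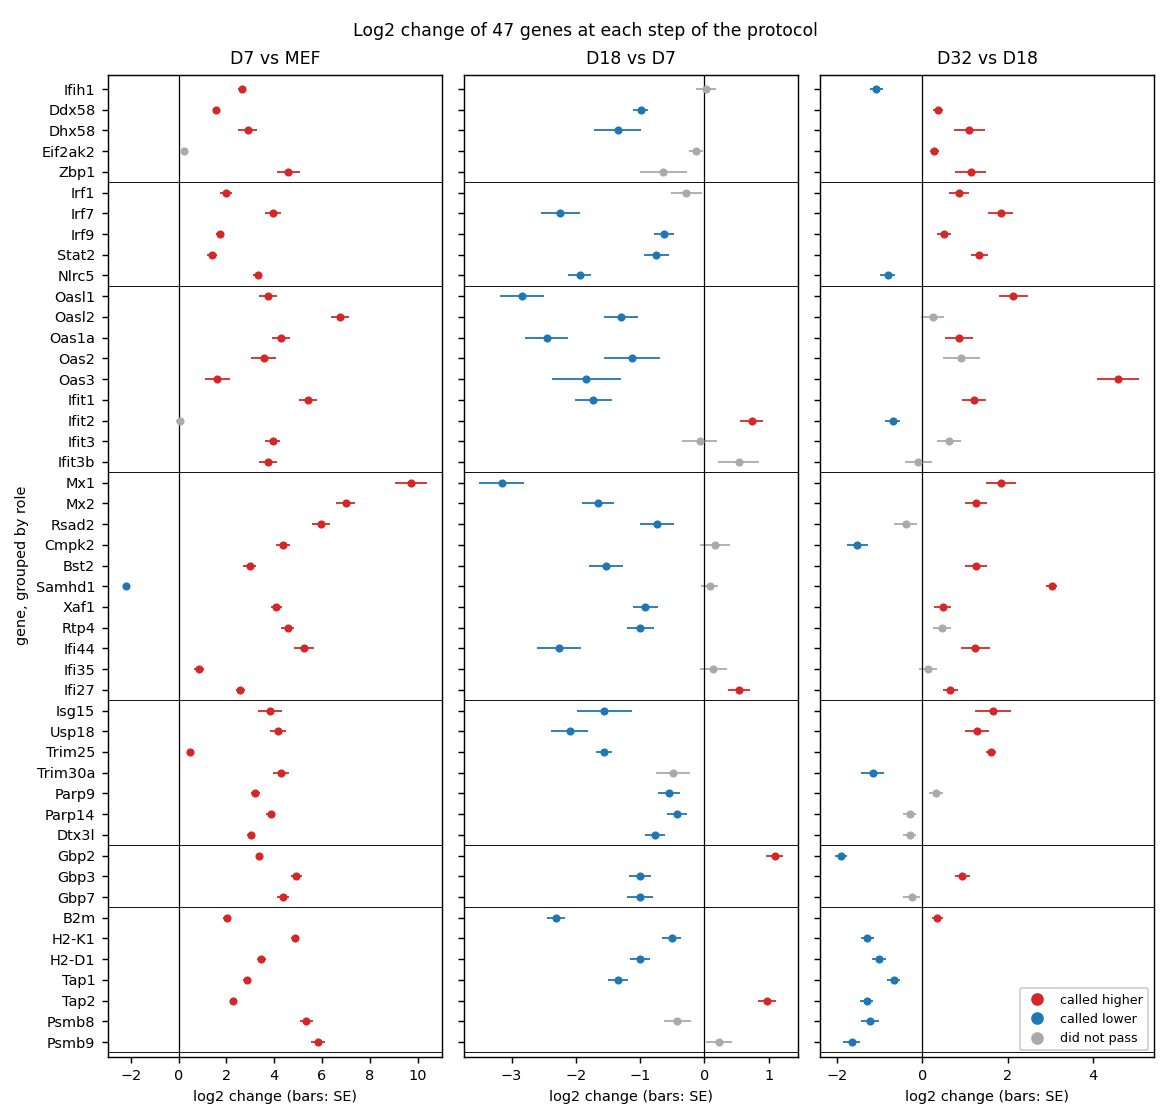
Log2 change of each of the 47 genes (dots, with bars of 1 SE) at the 3 steps of the protocol, D7 relative to MEF, D18 relative to D7 and D32 relative to D18, coloured by call at an adjusted p under 0.05. Nearly all dots lie right of 0 in the first panel and most lie left of it in the second, where Ifit2, Ifi27, Gbp2 and Tap2 are the 4 called higher; in the third, the class I genes at the bottom lie left of 0 except B2m.

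All 7 genes of class I presentation rose at D7, in a group that assembles the peptide-MHC complex: the heavy chains H2-K1 and H2-D1, the light chain B2m, the peptide transporter subunits Tap1 and Tap2 and the immunoproteasome subunits Psmb8 and Psmb9. B2m had 1333, 1226 and 1197 CPM at D7, against 311, 322 and 301 CPM in MEF (log2 change 2.01 ± 0.14, adjusted p = 1.23e-08). H2-K1 had 806, 733 and 732 CPM at D7, against 25.03, 29.1 and 24.1 CPM in MEF (4.86 ± 0.18, adjusted p = 2.47e-11). H2-D1 had 1334, 1190.3 and 1233 CPM at D7, against 108, 121 and 111 CPM in MEF. In MEF the light chain stood above the heavy chains per length: per kilobase of exon, the mean level was 361.8 CPM for B2m, 44.0 CPM for H2-D1 and 8.88 CPM for H2-K1. Together B2m, H2-K1 and H2-D1 made up 65.4% to 72.5% of the summed CPM of the 47 members at D7, against 50.6% to 52.1% in MEF, and 36.4% to 38.1% at D32, against 48.4% and 51.5% in P-RPE. H2-K1 and H2-D1 resemble each other and the H2-Q genes, so reads may be shared among them.

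The light and heavy chains separated at D18. B2m fell to 308, 249.9 and 202 CPM at D18, against the D7 levels above (log2 change -2.31 ± 0.14, adjusted p = 4.16e-09), and its D18 and MEF libraries overlapped (-0.30 ± 0.13 at D18 relative to MEF, adjusted p = 0.0553). H2-K1 kept 615, 567 and 412 CPM at D18 (-0.51 ± 0.15 relative to D7), above every MEF library by 4.35 ± 0.17 on the log2 scale. Within each library the ratio of H2-K1 to B2m CPM, in which gene length cancels between groups, lay between 0.0800 and 0.0906 in MEF, between 0.598 and 0.612 at D7, between 1.99 and 2.27 at D18, between 0.568 and 0.841 at D32, and at 0.784 and 0.994 in P-RPE. The D18 ratios lay above those of every other library, and H2-D1 to B2m likewise, at 2.33 to 2.60 at D18 against 0.971 to 1.03 at D7. The call of B2m at D18 relative to MEF depended on the setting: it was lower with no filter on low counts (-0.36), with the replicate number as a block (-0.31), with limma-voom (-0.32) and without D7 replicate 1 (-0.35), 2 (-0.35) or 3 (-0.35), D18 replicate 1 (-0.46) or D32 replicate 2 (-0.30).

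The transporter subunits separated too. Tap1 had 15.8, 17.5 and 16.2 CPM in MEF, 120, 125 and 117 CPM at D7, 52.7, 51.4 and 38.4 CPM at D18, 24.98, 38.1 and 26.3 CPM at D32, and 36.9 and 42.5 CPM in P-RPE. Tap2 had 6.79, 5.45 and 5.45 CPM in MEF, 29.9, 29.8 and 26.4 CPM at D7, 60.8, 50.8 and 58.1 CPM at D18, 19.8, 27.2 and 21.4 CPM at D32, and 37.9 and 47.2 CPM in P-RPE. At D18 relative to D7, Tap1 fell (log2 change -1.35 ± 0.15, adjusted p = 3.07e-06) while Tap2 rose (0.98 ± 0.14, adjusted p = 3.11e-05), in each case with no overlap. The ratio of Tap2 to Tap1 CPM within libraries lay between 0.311 and 0.4305 in MEF, between 0.225 and 0.250 at D7, between 0.988 and 1.51 at D18, between 0.714 and 0.813 at D32, and at 1.03 and 1.11 in P-RPE.

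The immunoproteasome subunits did not pass at D18 relative to D7, though their libraries did not overlap. Psmb9 had 17.0, 13.3 and 12.5 CPM at D18, against 12.3, 12.5 and 11.7 CPM at D7 (0.23 ± 0.20, adjusted p = 0.35), and 0.244, 0.166 and 0.227 CPM in MEF. It fell to 3.13, 5.46 and 4.91 CPM at D32, below every D18 library (-1.66 ± 0.21, adjusted p = 7.75e-06). Psmb8 had 18.29, 18.8 and 13.8 CPM at D18, against 22.4, 23.9 and 21.7 CPM at D7, a difference that did not pass (-0.42 ± 0.21, adjusted p = 0.0983) but did with library totals alone (-0.64), limma-voom (-0.43), the 2 groups alone (-0.40) and without D32 replicate 2 (-0.42). It had 5.13, 9.79 and 6.76 CPM at D32. Psmb9 and Tap1 start 211 bases apart on opposite strands of chromosome 17, at 34181987 to 34187764 and 34187553 to 34197225, and share 212 exonic bases.

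At D32 relative to D18, 6 of the 7 class I genes fell, by 0.67 (Tap1, SE 0.15) to 1.66 (Psmb9, SE 0.21). The exception was B2m, at 340.0, 302 and 327 CPM at D32, whose higher call (0.35 ± 0.13, adjusted p = 0.0334) had overlapping libraries and was lost with RLE size factors (0.28), DESeq2 (0.28) and the 2 groups alone (0.33), and without D18 replicate 2 (0.31), D18 replicate 3 (0.21), D32 replicate 1 (0.31) or D32 replicate 3 (0.34). H2-K1 had 193, 254 and 203 CPM at D32, still above every MEF library by 3.05 ± 0.16 on the log2 scale, while B2m at D32 did not pass against MEF (0.05 ± 0.13, adjusted p = 0.74). In the other 6 roles, 23 of 40 members rose in the same comparison and 6 fell.

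**Figure D4:**
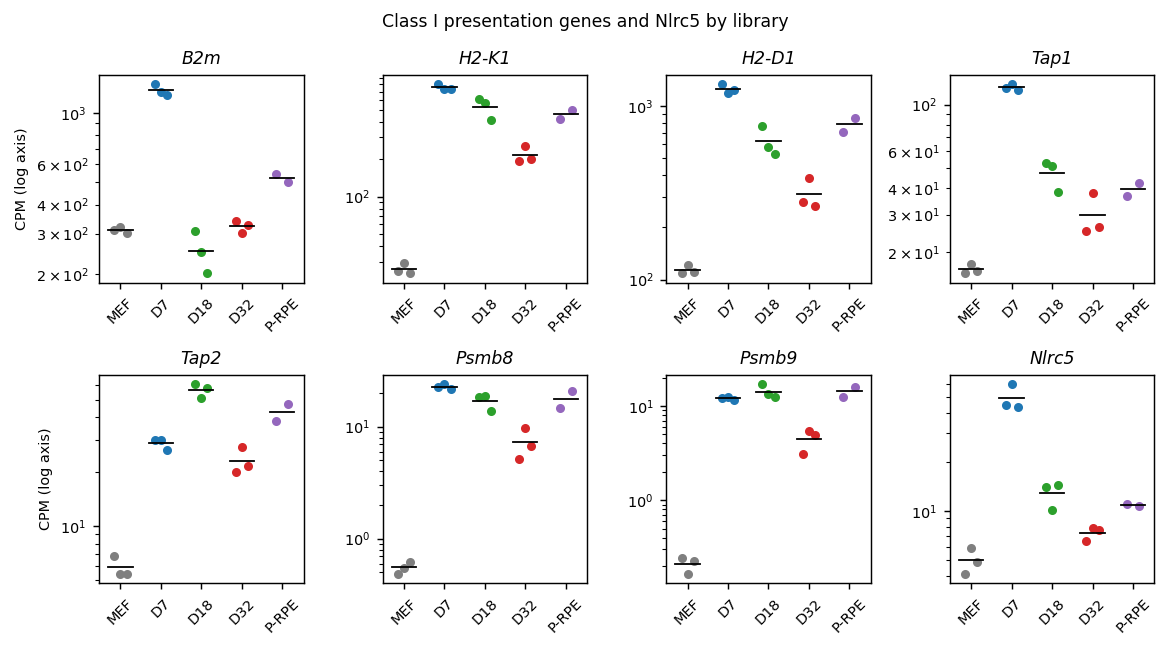
CPM on log axes of the 7 class I genes and Nlrc5 in each library (dots) of MEF, D7, D18, D32 and P-RPE, with the group mean as a line; each panel has its own scale. B2m peaks at D7 (1197 to 1333 CPM) and overlaps MEF at D18, H2-K1 is at 412 to 615 CPM at D18, and Tap2 and Psmb9 are at or above their D7 levels at D18.

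Set against P-RPE, D32 was lower for 6 of the 7 class I genes. H2-K1 had 193, 254 and 203 CPM at D32, against 425 and 496 CPM in P-RPE, and B2m had 340.0, 302 and 327 CPM at D32, against 542 and 499 CPM in P-RPE, with no overlap for either. The log2 changes at D32 relative to P-RPE were -1.09 ± 0.16 for H2-K1, -0.69 ± 0.14 for B2m, -1.34 ± 0.17 for H2-D1, -0.90 ± 0.16 for Tap2, -1.29 ± 0.23 for Psmb8 and -1.67 ± 0.22 for Psmb9. Tap1 did not pass (-0.41 ± 0.17, adjusted p = 0.0519), but did with RLE size factors (-0.49), DESeq2 (-0.49), limma-voom (-0.44), genes of at least 5 CPM (-0.44) and without D18 replicate 3 (-0.42) or D32 replicate 2 (-0.63). In the other roles, D32 was lower for 18 members and higher for Eif2ak2, Ifit2, Samhd1 and Ifi44. Ifit2 had 27.7, 19.1 and 20.5 CPM at D32, against 15.3 and 15.6 CPM in P-RPE (0.54 ± 0.20, adjusted p = 0.0336), a call lost with RLE size factors (0.46), DESeq2 (0.46) and limma-voom (0.52), and without D32 replicate 1 (0.36), P-RPE replicate 1 (0.53) or P-RPE replicate 2 (0.55). For the ISG15 and ubiquitin group, 5 of 7 did not pass. With P-RPE at 2 libraries, a call that did not pass here does not show that the groups are alike.

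**Figure D5:**
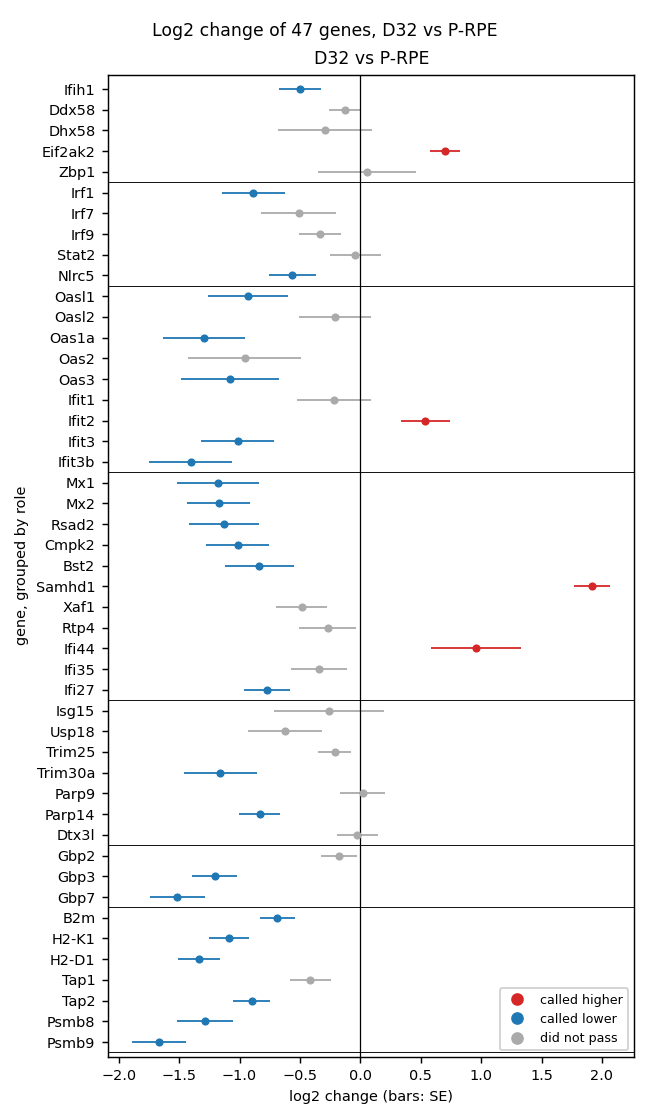
Log2 change of each of the 47 genes at D32 relative to P-RPE (dots, with bars of 1 SE), coloured by call at an adjusted p under 0.05. Dots left of 0 are lower at D32; Samhd1 stands farthest right at 1.92 and Psmb9 farthest left at -1.67.

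Markers of blood and vessel cells moved with the interferon genes between some groups and not between others. The summed level of 10 macrophage and microglia markers was 64.7 to 71.9 CPM in MEF, 18.5 to 20.7 CPM at D7, 11.1 to 41.1 CPM at D18, 147 to 257 CPM at D32 and 1228 to 1315 CPM in P-RPE, and 10 of the 10 had a mean of at least 1 CPM at D32 and in P-RPE. At D7, where most members rose, the macrophage sum was below that of MEF. Cd68 held most of the D7 sum (mean 13.8 CPM). At D18 it had 9.47, 39.7 and 9.01 CPM, the 39.7 CPM in replicate 2. Csf1r had 0.169, 0.800 and 5.33 CPM at D18, highest in replicate 3. The 6 dendritic and class II markers summed to 1.34 to 2.64 CPM in MEF and 2.66 to 6.00 CPM at D7. The sums were 3.51 to 7.79 CPM at D18, 82.8 to 159 CPM at D32 and 642 to 763 CPM in P-RPE. Most of the D7 and D18 sums was H2-Ab1, at 5.13, 2.04 and 3.32 CPM at D7 and 4.16, 7.31 and 3.19 CPM at D18. In MEF it had 0.305, 0.526 and 0.482 CPM. Means in MEF, at D7 and at D18 fell for Itgax (1.31, 0.0641 and 0.0178 CPM) and H2-Aa (0.323, 0.226 and 0.0733 CPM). Those of Cd74 were 0.114, 0.444 and 0.184 CPM, and those of Flt3 0.0189, 0.168 and 0.0190 CPM. The 6 endothelial markers summed to 51.3 to 56.7 CPM in MEF, 3.04 to 3.77 CPM at D7, 0.855 to 4.47 CPM at D18, 147 to 203 CPM at D32 and 580 to 677 CPM in P-RPE. Most of the MEF sum was Kdr, which averaged 51.6 CPM in MEF and 1.46 CPM at D7. Emcn was also lower at D7 (1.11 CPM in MEF and 0.0985 CPM at D7). Pecam1 (0.286 and 0.357 CPM) and Cdh5 (0.391 and 1.38 CPM) were not. Tie1 was at 0 in both groups, and Cldn5 was at 0.0189 and 0.0333 CPM. The 8 T, B and NK cell markers summed to 0.0851 to 0.332 CPM in MEF, 0.295 to 0.777 CPM at D7, 0.656 to 0.907 CPM at D18, 5.43 to 8.34 CPM at D32 and 43.5 to 48.8 CPM in P-RPE, and 5 of the 8 were at 0 in MEF and 5 at D7. The 5 red cell markers summed to at most 0.579 CPM in MEF, at D7 and at D18, to 102 to 204 CPM at D32 and to 974 to 1779 CPM in P-RPE. Astrocyte and glial markers (6 genes) summed to 16.4 to 18.7 CPM in MEF, 1050.1 to 1522 CPM at D7, 24122 to 35682 CPM at D18, 1942 to 2098 CPM at D32 and 306 to 491 CPM in P-RPE. The part of such cells in the levels of the interferon genes was not tested. Fibroblast markers (6 genes) summed to 10624 to 11070 CPM in MEF, 8054 to 8756 CPM at D7, 3008 to 13951 CPM at D18, 9321 to 15145 CPM at D32 and 903 to 1113 CPM in P-RPE. From MEF to D7, mean levels were lower for Col1a1 (7481 to 2657 CPM), Col1a2 (2403 to 1838 CPM) and Pdgfra (165 to 126 CPM). They were higher for Col3a1 (512 to 2918 CPM), Thy1 (330 to 592 CPM) and Lum (1.96 to 305 CPM). D18 replicate 3 was the lowest D18 library for each of these genes, with Col1a1 at 783 CPM against 2788 and 3527 CPM.

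Interferon genes themselves were close to the limit of detection. Of 21 ligand genes, 1 (Ifnz) passed the filter on low counts. Their counts over all libraries of a group came to 14 counts for MEF, 6 for D7, 7 for D18, 50 for D32 and 20 for P-RPE. Ifnb1, the type I interferon that fibroblasts are known to make first, had 0 counts in MEF, D7 and P-RPE, 1 at D18 and 2 at D32. If counts are independent, a count of 0 allows up to 3 counts over a group. Ifng, which T and NK cells make, had 0 counts up to D18, then 11 at D32, and 10 in P-RPE.

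Genes of the pathway outside the members were counted in lists, to be read against the 28.5% of all genes that rose and the 26.5% that fell at D7 relative to MEF. Of 10 receptor and JAK-STAT genes, 4 rose, 3 fell and 3 did not pass, shares of 40% and 30% that are near those of all genes. Jak2, the kinase of the interferon gamma receptor, rose at D7 relative to MEF (log2 change 1.36 ± 0.16), and Jak1 fell by 0.47 (SE 0.09). Of 9 brakes of the pathway, 3 rose at D7, 3 fell and 3 did not pass, again near the shares of all genes. Socs3, an inhibitor of JAK kinases, averaged 356 ± 64.4 CPM at D7 and 23.3 ± 1.53 CPM in MEF (SD, n = 3 each). Of 13 genes of nucleic acid sensing upstream, 6 rose at D7, 1 fell and 6 did not pass, with a median log2 change of 0.34 beside 0.04 over all genes. Tlr3, the endosomal sensor of double-stranded RNA, rose by 2.54 ± 0.22. At D18 relative to D7, Sting1, the adaptor of cytosolic DNA sensing, fell by 2.34 (SE 0.37) and Tlr3 rose by 1.90 ± 0.20.

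Of 50 further interferon-induced genes, 37 rose at D7 relative to MEF, 3 fell and 10 did not pass, with a median log2 change of 2.46 beside 0.04 over all genes. At D18 relative to D7, 10 rose, 25 fell and 15 did not pass (29.2% of all genes rose and 27.4% fell), with a median of -0.75 beside 0. At D32 relative to D18, 22 rose, 12 fell and 16 did not pass (29.9% and 26.1% of all genes), with a median of 0.51 beside 0.07. Relative to P-RPE, 10 rose at D32, 15 fell and 25 did not pass, shares of 20% and 30% near the 27.1% and 26.8% of all genes, with a median of -0.38 beside 0.02. Gbp4 had 0 counts in MEF and 603 over the D7 libraries, at least 168-fold higher at D7 if counts are independent. Gbp6 had 2363 counts at D7 and 3 in MEF, a ratio of 666 with an exact 95% counting interval of 228 to 3231, again for independent counts. Tgtp1, a T cell-specific GTPase by name that interferon gamma induces in many cells, averaged 165 ± 17.2 CPM at D32 and 0.0757 ± 0.0872 CPM at D18 (SD, n = 3 each), and 6.94 ± 0.834 CPM in P-RPE (n = 2). Its near-copy Tgtp2 averaged 8.46 ± 2.45 CPM at D32 (n = 3) and 10.0 ± 0.508 CPM in P-RPE (n = 2), and reads may be shared between the copies.

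Of 17 further class I and peptide-loading genes, 11 rose at D7 relative to MEF, 3 fell and 3 did not pass, with a median log2 change of 1.27 beside 0.04 over all genes. H2-Q6 and H2-Q7, class I genes beside the classical ones, averaged 91.0 ± 4.96 CPM and 86.0 ± 2.84 CPM at D7 and 0.0955 ± 0.0648 CPM and 0.594 ± 0.281 CPM in MEF (SD, n = 3 each). Psmb10, the remaining immunoproteasome subunit, rose by 1.19 ± 0.18 at D7 relative to MEF and by 0.53 ± 0.18 at D18 relative to D7, and fell by 1.33 at D32 relative to D18 (SE 0.18). Calr and Pdia3, chaperones of the peptide-loading complex and of other proteins, fell: Calr averaged 1028 ± 144 CPM at D7 and 2182 ± 31.1 CPM in MEF, and Pdia3 576 ± 42.7 CPM at D7 and 1019 ± 29.3 CPM in MEF (SD, n = 3 each). Of 10 proteasome subunits, Psmb5 to Psmb7 and Psma1 to Psma7, 0 rose at D7 relative to MEF, 7 fell and 3 did not pass. Their median log2 change was -0.51, beside 0.04 over all genes. The Psma subunits belong to both the constitutive proteasome and the immunoproteasome, so this count does not describe the constitutive form alone. Psmb5 and Psmb7, subunits with counterparts in the immunoproteasome, fell by 0.75 (SE 0.14) and 0.49 (SE 0.11), while Psmb6, the counterpart of Psmb9, did not pass (-0.19 ± 0.13).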

How the data were processed

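Total RNA of 14 mouse libraries was sequenced with a NEBNext Ultra kit as paired reads of 150 bases, per the labels' protocols. The authors deposited raw counts, whole numbers given by symbol for every library, with no normalization. STAR 2.7.11a, featureCounts (Subread), edgeR 4.0.16 and limma 3.58.1 are listed, per the submitters' processing notes, beside the builds mm10, GRCm38 and GRCh38, with no role or order. Whether counting used strand, how reads matching several places were handled and the annotation release are not given in the sources used here. All columns of the table were used; a table of human libraries was not used here.

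Groups came from sample titles. Of 55291 symbols, 20418 had 0 counts in all libraries and 20562 passed edgeR's filterByExpr by group. Counts were fitted with edgeR 4.0.16 in R 4.3.3: TMM factors, 1 robust quasi-likelihood fit of all 5 groups, and 7 contrasts, with Benjamini-Hochberg adjusted p-values over all genes and calls under 0.05. The SE is the size of the log2 change over the square root of F. All p-values in the text come from this fit across all genes unless another tool is named. Folds against a group with 0 counts are lower bounds at a floor of 3 counts over the group, and intervals cover counting error only. Both take counts as independent. Many low counts were even, such as totals of 6 for Mx2 and 16 for Oas3 in MEF, though others were odd, such as 3 for Gbp6. If the 2 reads of a pair were counted apart, these bounds are too high and the intervals too narrow. This was not tested. Levels drawn on a log2 scale add 0.5 to the CPM. Coordinates are GENCODE vM21 on GRCm38, and promoters are RefSeq windows of GRCm38.p6.

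The 47 members, the pathway and marker lists and the rule for named genes were chosen with earlier results of these data known. The rule names, in each role, the most abundant member, the 2 called members with the largest change in each of 4 comparisons at 1 CPM or more, and any called against the majority of the called members of a comparison: 38 members. Irf9, Parp9, Dtx3l, Rsad2, Bst2, Xaf1, Rtp4, Ifi35 and Oas2 lie outside it and were chosen after their values were seen. Each result was also computed with other tools (DESeq2 1.42.0 or limma-voom), other scaling (RLE size factors or library totals alone), another filter (none, or 5 CPM on average), a block for replicate number, only the 2 groups compared, and 1 library left out at a time.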

Additional observations from a re-analysis of the deposited data

How the results depend on the processing

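Across 7187 values, each the log2 change of 1 member in 1 comparison under 1 alternative, 6988 kept the side of the threshold, 133 lost the call and 66 gained one. The sign changed for 69, none of them called under either setting. The median change of the 47 genes at D7 relative to MEF was 4.05 with library totals alone and 3.47 among the 40 members with a mean of at least 5 CPM, against 3.73; it ranged from 3.39 (without D7 replicate 2) to 3.82 over the libraries left out. Members higher at D32 than in P-RPE numbered 2 with RLE size factors and 2 to 4 over the libraries left out, and members lower numbered 12 to 30. Members lower in P-RPE than in MEF numbered 1 at a mean of at least 5 CPM and 1 to 3 over the libraries left out, and the median of that comparison ranged from 3.57 (without P-RPE replicate 2) to 4.196. Library totals alone moved the median of all genes by comparison, to 0.36 at D7 relative to MEF (0.04 with TMM), -0.19 at D18 relative to D7 (0), 0.46 at D32 relative to MEF (0.26) and 0.25 at D32 relative to P-RPE (0.02). The higher share of all calls moved with it to 40.7% (51.6%) at D18 relative to D7, 69.1% (59.2%) at D32 relative to MEF and 62.1% (50.2%) at D32 relative to P-RPE. The same share of member calls was 7.89% (11.4%), 100% (100%) and 17.4% (14.3%). The cause of these shifts was not tested.

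With the replicate block, 44 members were higher and 1 lower at D7 relative to MEF, with a median of 3.69. The block ended 2 calls (Xaf1 at D32 relative to D18, 0.46, and Oas3 at D32 relative to P-RPE, -1.08) and added 2 (Oasl1 and B2m at D18 relative to MEF). Over 26 pairs of libraries with the same number, deviations from group means correlated at -0.15 to 0.19, with 3 pairs over 0.1. Among the 3 were both pairs of D32 and P-RPE (0.19 and 0.14). Pairs with different numbers were not computed for comparison, so these values cannot decide whether the numbers pair the libraries. Depth limits the folds of Mx1, Mx2, Oas3 and Psmb9, which had under 0.3 CPM in all MEF libraries.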
